A study of Mus musculus with 4 samples.

Results

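The genes described here encode the proteins that make microRNAs (miRNAs) and those that form the core of small nucleolar ribonucleoproteins (snoRNPs). Members were chosen by name, as the probe sets whose annotation gives exactly one of 10 symbols: Drosha, Dgcr8, Dicer1, Xpo5 and Tarbp2 for miRNA processing and export, and Nop56, Nop58, Fbl, Dkc1 and Gar1 for the snoRNPs. All 10 were measured, of 19938 genes named singly on the array, by 12 of its 35556 probe sets, as Tarbp2 and Fbl have 2 probe sets each. The samples were whole brains of adult male C57BL/6J mice aged 60 days by the labels, pooled by 3 from different litters onto each of 4 Mouse Gene 1.0 ST arrays. Ethanol-exposed pups had received 20% ethanol in 0.15 M saline subcutaneously, as 2 doses of 2.5 g/kg given 2 hours apart on each of postnatal days 4 and 7, and their littermate controls saline alone. Dams were taken out of the cage during the injections in both groups, and all mice were weaned at day 25 by the labels. The methods give another age and weaning day. There were 2 arrays per group, titled control 1 and control 3 (saline) and ethanol 2 and ethanol 4.

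For control 1 and ethanol 4, one label field (treatment) contradicts the title and source name, and it is the latter that define the groups here. Array medians ran from 6.51 to 6.61 (log2) for controls and from 6.33 to 6.38 for ethanol, so each value is given in the deposited form and once more with the arrays quantile normalized. The median difference of all probe sets, ethanol minus control, was -0.146 as deposited and -0.00424 after normalization. Of 10 pituitary markers 9 were measured, and their summed linear signal was 2506 on ethanol 2 against 9220 to 9625 on the other arrays. Gh, Prl and Cga were each more than 3 log2 units lower on ethanol 2 than on the others, whereas Pomc was 5.95 and 6.09 in the saline pools against 5.48 and 5.50 in the ethanol pools. Without ethanol 2, 2 member probe sets were past the limits used below and lower, and 1 was higher (Fbl, 10551464), where 9.84% and 2.42% of all probe sets were, against 2 and 0 with it. The part of pituitary tissue in the members' values was not tested. The 8 neuronal markers had mean log2 signals of 8.43 to 13.32, a median difference of -0.11, and none past those limits. Of 43 markers in 8 other lists (glia, vessels, choroid plexus, meninges, blood and muscle), 6 were lower and 1 higher as deposited, with a median of -0.15. Of all probe sets 17.9% were lower and 2.23% higher by the same limits. After normalization 1 marker was lower (Cnp, of oligodendrocytes) and 1 higher (Slc6a13, of meninges), where 5.87% and 5.71% of all probe sets were. The part of these cell types was not tested. As a level of silent genes, the 95th percentile of 205 vomeronasal and taste receptor probe sets was 6.20. It was taken from their means over all 4 arrays as deposited. No level was set for each group, though the array medians differed, or after normalization. Pomc lay under 6.20 on every array. In both groups 9 of the 12 member probe sets lay above it. In the ethanol pools neither Tarbp2 probe set did, and in the saline pools Tarbp2 (10544497) and Fbl (10551464) did not. In whole tissue, fewer cells of a type and less RNA per cell cannot be told apart.

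MicroRNAs are cut out of longer hairpin transcripts in successive steps. In the nucleus the RNase III enzyme Drosha and its RNA-binding partner Dgcr8, together called the Microprocessor, release the hairpin. The export receptor Xpo5 carries it to the cytoplasm, where Dicer1, a further RNase III enzyme, trims it to a duplex with the help of the double-stranded RNA-binding protein Tarbp2. Small nucleolar RNAs (snoRNAs) act as guides within protein particles. Box C/D particles hold the methyltransferase Fbl (fibrillarin) with Nop56 and Nop58 and methylate the ribose of ribosomal RNA. Box H/ACA particles hold the pseudouridine synthase Dkc1 (dyskerin) with Gar1. Many snoRNAs lie in introns of genes that themselves serve ribosome synthesis. Drosha also carries the older symbol Etohi2 in the RefSeq gene table.

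Small RNA genes lie inside several of the member genes in the RefSeq table (GRCm38.p6). The table places 10 snoRNA genes within Nop56, Nop58 and Dkc1 and 3 miRNA genes within Dgcr8 and Xpo5, of which 1 snoRNA (Snord57, in Nop56) and 1 miRNA (Mir693, in Xpo5) had a probe set of their own. The Mir693 hairpin is shown because it is both a substrate of this pathway and a gene within one of its members. Its mature arms are in capitals (RefSeq, GRCm38.p6, chr17:46231531-46231619, plus strand).
Mir693 hairpin: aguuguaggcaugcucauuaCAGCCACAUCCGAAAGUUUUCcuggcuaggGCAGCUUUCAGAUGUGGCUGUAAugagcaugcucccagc
The mature arms of Mir693 and of Mir1306, which lies within Dgcr8 (chr16, minus strand), follow with the seed, bases 2 to 8, in capitals. No seed is shared among the 4 arms.
mmu-miR-693-5p: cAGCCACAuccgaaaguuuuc
mmu-miR-693-3p: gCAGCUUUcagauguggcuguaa
mmu-miR-1306-5p: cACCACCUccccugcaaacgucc
mmu-miR-1306-3p: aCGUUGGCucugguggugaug

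The RefSeq promoter table (GRCm38.p6) matched 9 of the 10 genes. Fbl had no entry. Each window there is set by 1 transcript start, which for Tarbp2 lies 2115 bases inside the annotated gene and for the others 0 to 83 bases inside. In the 250 bases before that start, the CCAAT box (CCAAT, or ATTGG on the other strand) was found in 5 of these 9 promoters and in 33.8% of all 32851. It occurred 4 times in Dgcr8, 3 times in Drosha, 3 times in Tarbp2, and 1 time each in Dicer1 and Nop56. The site nearest to the start is shown for each, on the gene's strand and with the box in capitals. The sites are listed by the size of the genes' differences below. A link between the box and those differences was not tested.
Tarbp2, chr15:102518037-102518065, plus strand: ctctcagtatagCCAATaaagcagcgaag
Dgcr8, chr16:18289256-18289284, minus strand: ccgtgcgccgtgATTGGtagccctccgcc
Drosha, chr15:12824742-12824770, plus strand: ctcgctgatccgCCAATcacggtgcaaaa
Dicer1, chr12:104752107-104752135, minus strand: tccgcgctccgtCCAATcacaggacggct
Nop56, chr2:130274368-130274396, plus strand: ccgcagcctctgATTGGtcaaaccggaga
The E-box CACGTG was in 0 of the 9 and in 6.02% of all promoters, and the GC box (GGGCGG, or CCGCCC) was in 6 of the 9 and in 32.7%. These counts describe letters in a window and were not tied to any measured binding.

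The first comparison asked whether the genes that make miRNAs differed between ethanol-exposed and control brains. As deposited, 1 of the 2 Tarbp2 probe sets and Dgcr8 were lower in both ethanol pools and past the study's limits, which are a 1.2-fold difference and an unadjusted p under 0.05. Drosha was lower by less and short of the fold limit, and Dicer1 and Xpo5 did not separate the groups. After quantile normalization that Tarbp2 probe set was the only one of these 6 past the limits. No member passed an adjusted p of 0.05.
Tarbp2 (probe set 10427255) had log2 signals of 6.72 on control 1, 6.55 on control 3, 6.11 on ethanol 2 and 6.18 on ethanol 4. Both ethanol pools lay below both control pools, by more than either pair differed within itself. The difference was -0.49 (standard error 0.10, 95% interval -0.76 to -0.22, limma, unadjusted p = 0.00604, adjusted p = 0.171, n = 2 arrays per group), or 1.41-fold between signals, of which those in the ethanol pools were not above the silent level of 6.20. After quantile normalization the signals were 6.57 and 6.50 in the saline pools against 6.24 and 6.25 in the ethanol pools, and the difference was -0.29 (95% interval -0.50 to -0.07, adjusted p = 0.306). As deposited it stayed past the limits with any 1 array left out, at -0.58 to -0.41, but after normalization this held only without control 3.
The other Tarbp2 probe set (10544497) did not show this. Its signals were 6.05 and 5.94 in the saline pools against 5.88 and 5.90 in the ethanol pools. The difference of -0.10 (95% interval -0.34 to 0.14, limma adjusted p = 0.504) turned to 0.09 after quantile normalization. It was under the silent level in both groups. Probe set numbers of the other members run in the text order of their chromosomes (chr17 before chr2). Tarbp2 lies on chr15, and 10427255 falls between Drosha (10423185, chr15) and Dgcr8 (10438313, chr16). The number 10544497 falls between Gar1 (10502146, chr3) and Dkc1 (10600485, chrX), so this probe set may not lie at Tarbp2. Which probe set reads Tarbp2 alone was not tested, so the direction for the gene is uncertain.
The Microprocessor genes came next in size. Dgcr8 had signals of 7.90 and 7.89 in the saline pools, 7.64 on ethanol 2 and 7.51 on ethanol 4, so the control pools were nearly equal and both ethanol pools were lower. Its difference was -0.32 (standard error 0.09, 95% interval -0.56 to -0.08, limma adjusted p = 0.183, n = 2 arrays per group). It was no longer past the limits without control 1 (-0.31), without control 3 (-0.33) or without ethanol 4 (-0.26), nor after quantile normalization (-0.15, 95% interval -0.40 to 0.09).
Drosha had signals of 10.02 and 9.97 in the saline pools against 9.75 and 9.73 in the ethanol pools. The pools of each group were within 0.05 of each other, and the groups did not overlap. The difference of -0.25 (95% interval -0.48 to -0.03, limma unadjusted p = 0.0321, adjusted p = 0.200) was 1.19-fold. After quantile normalization it was -0.15 (95% interval -0.36 to 0.05), the same as that of Dgcr8, and the groups were still apart.
Dicer1 had signals of 9.05 and 8.97 in the saline pools, 8.79 on ethanol 2 and 9.03 on ethanol 4. Only ethanol 2 lay below the controls, and the ethanol pools differed from each other by more than the group means did. The difference was -0.10 (95% interval -0.41 to 0.21, limma adjusted p = 0.619) as deposited and 0.03 after normalization, where without ethanol 2 it was 0.14. Xpo5 had 8.41 on control 1, 8.59 on control 3 and 8.55 in both ethanol pools, so the ethanol pools fell between the controls. Its difference was 0.05 (95% interval -0.22 to 0.32, limma adjusted p = 0.777) as deposited. After normalization it was 0.18 (95% interval -0.12 to 0.48), and both ethanol pools then lay above the controls.

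**Figure D1:**
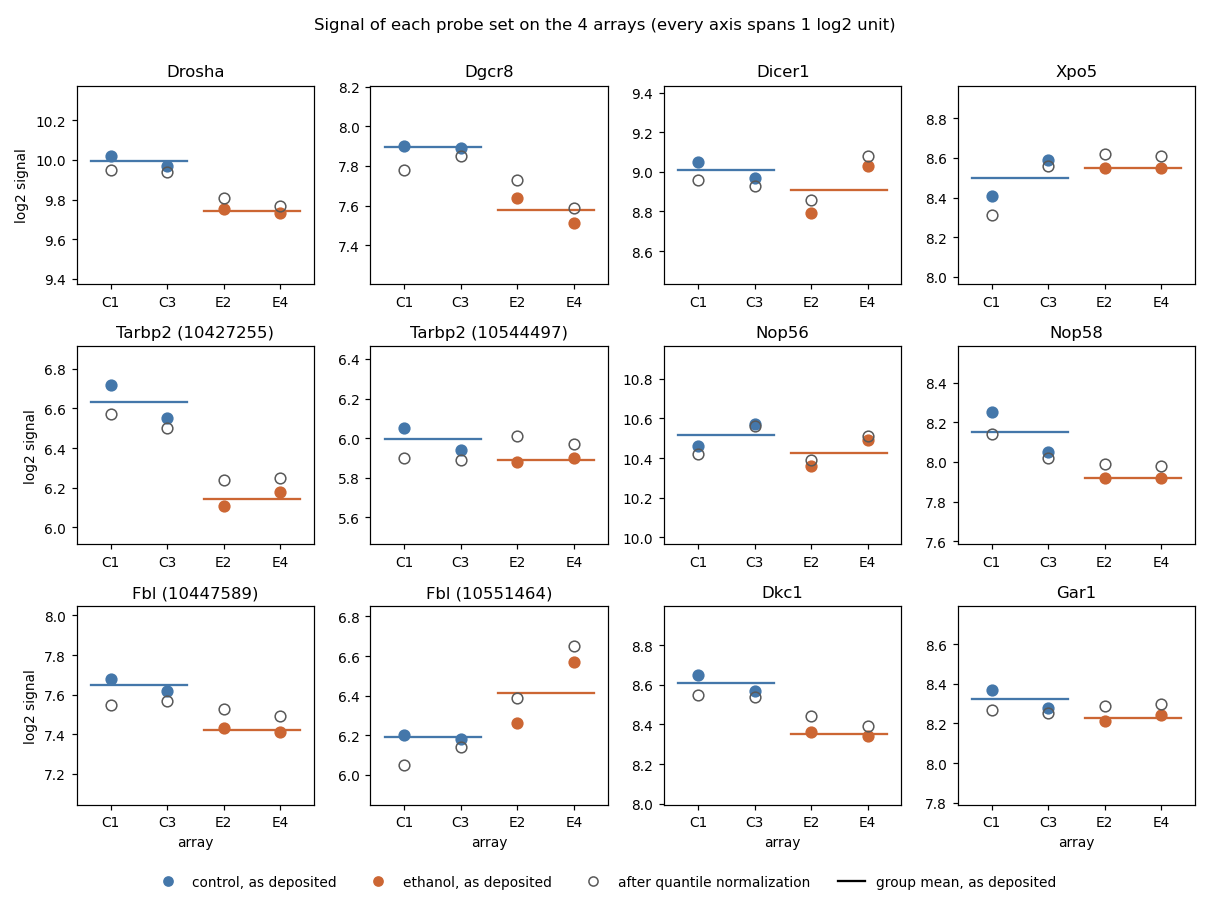
Log2 signal (vertical axes, each spanning 1 log2 unit) of the 12 member probe sets on control 1 (C1), control 3 (C3), ethanol 2 (E2) and ethanol 4 (E4). Filled points are the values as deposited with their group means as lines, and open points are the values after quantile normalization. Tarbp2 (10427255), with 6.72 and 6.55 in the saline pools against 6.11 and 6.18, has the widest gap between groups, and Fbl (10551464) is the one whose ethanol pools lie above both controls as deposited.

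The second comparison asked the same of the snoRNP proteins. As deposited, none of their 6 probe sets was past the study's limits. Dkc1, Nop58, Gar1 and the brighter Fbl probe set were lower in both ethanol pools, by less than 1.2-fold, whereas the dimmer Fbl probe set was higher. After quantile normalization this last one was past the limits.
In the box H/ACA particle, Dkc1 had signals of 8.65 and 8.57 in the saline pools against 8.36 and 8.34 in the ethanol pools. The groups were apart, and the difference of -0.26 (95% interval -0.49 to -0.03, limma unadjusted p = 0.0323, adjusted p = 0.200) was 1.199-fold, which is the member nearest to the fold limit. After normalization it was -0.13 (95% interval -0.34 to 0.08). Gar1, its partner, had 8.37 and 8.28 in the saline pools against 8.21 and 8.24 in the ethanol pools, so the groups were apart here too. Its difference was -0.10 (95% interval -0.33 to 0.13, limma adjusted p = 0.509), and 0.04 after normalization, where both ethanol pools lay above the controls.
In the box C/D particle, Nop58 had 8.25 and 8.05 in the saline pools and 7.92 in both ethanol pools. Control 1 stood higher than the other 3, and the difference of -0.23 (95% interval -0.51 to 0.05, limma adjusted p = 0.268) was -0.13 without control 1 and -0.33 without control 3, where it passed the limits. Nop56 had 10.46, 10.57, 10.36 and 10.49 on control 1, control 3, ethanol 2 and ethanol 4, and the groups overlapped. Its difference was -0.09 (95% interval -0.35 to 0.17, limma adjusted p = 0.574), and -0.03 after normalization. Nop56 was the brightest member, at a mean log2 signal of 10.47.
The probe sets of Fbl disagreed. Probe set 10447589 had 7.68 and 7.62 in the saline pools against 7.43 and 7.41 in the ethanol pools, a difference of -0.23 (95% interval -0.46 to -0.01, limma adjusted p = 0.220) that was -0.06 after normalization. Probe set 10551464 had 6.20 and 6.18 in the saline pools, 6.26 on ethanol 2 and 6.57 on ethanol 4. Ethanol 4 stood above the other 3 arrays, and the saline pools were not above the silent level. Its difference was 0.22 (95% interval -0.12 to 0.57, limma adjusted p = 0.353) as deposited, 0.43 (95% interval 0.11 to 0.75, adjusted p = 0.306) after normalization, and 0.07 as deposited without ethanol 4. The annotation lists a shared RefSeq transcript for both. Fbl lies on chr7, and by the order of numbers given for Tarbp2, 10551464 falls between Gar1 (10502146, chr3) and Dkc1 (10600485, chrX). Probe set 10447589, the one that was lower, falls between Xpo5 (10445458, chr17) and Nop56 (10476093, chr2), so it may not lie at Fbl. Which one reads Fbl alone was not tested, so the direction for Fbl is uncertain.
Snord57, the snoRNA inside Nop56, did not separate the groups. It had 12.30 and 12.27 in the saline pools, 12.33 on ethanol 2 and 12.09 on ethanol 4, a difference of -0.07 (standard error 0.12, limma adjusted p = 0.715) and -0.02 after normalization. Mir693, the miRNA gene inside Xpo5 shown above, had 5.53 and 5.62 in the saline pools against 5.58 and 5.47 in the ethanol pools. At that low signal its difference was -0.05 (standard error 0.10, limma adjusted p = 0.753), and 0.12 after normalization.

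**Figure D2:**
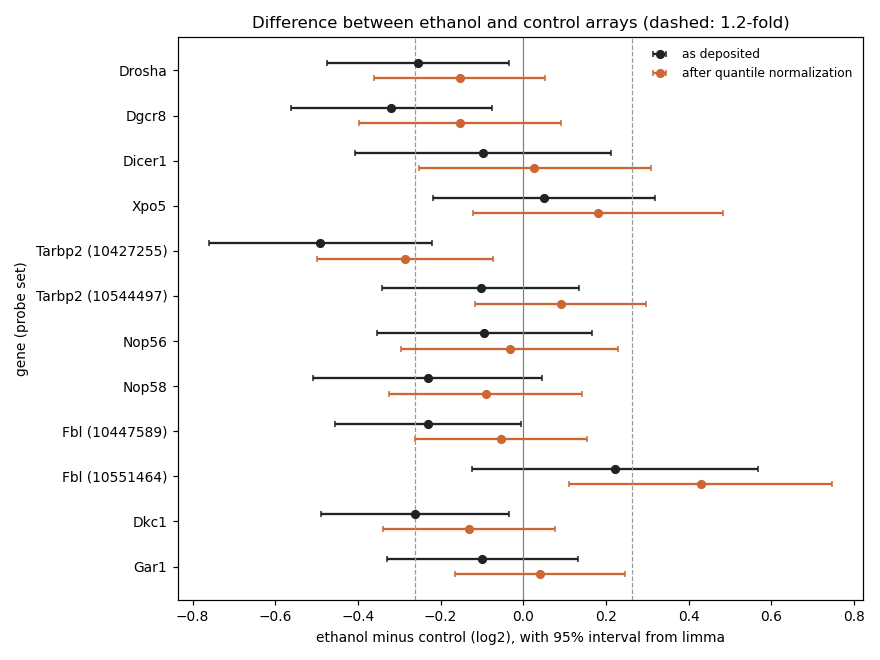
Difference between ethanol and control arrays (horizontal axis, log2) for each member probe set, with 95% intervals from limma, as deposited (black) and after quantile normalization (orange). Dashed lines mark 1.2-fold. Normalization moves every point to the right, and Tarbp2 (10427255, -0.49 and -0.29) and Fbl (10551464, 0.43 after normalization) are the ones whose interval lies off 0 after it.

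Read against the array as a whole, the members past the limits made up a share close to the background. As deposited, 2 of the 12 were lower and past them, where 17.9% of all probe sets were, and 0 were past them and higher, where 2.23% of all were. The ethanol arrays lay wholly below the control arrays in 8 of the 12, against 52.7% of all probe sets, and wholly above in 1, against 7.25%. The median difference of the members was -0.17 and that of all probe sets -0.15. After quantile normalization 1 of the 12 was lower and 1 higher, where 5.87% and 5.71% of all probe sets were. The groups were then apart and lower in 6 and apart and higher in 4, against 24.9% and 24.0% of all. By an adjusted p of 0.05 from limma, 0 members were called in either form, where 0.00281% of all probe sets were as deposited and 0.00562% after normalization. At an unadjusted p of 0.05 there were 5 member probe sets as deposited and 2 after normalization, where 22.2% and 13.6% of all were. Of the 5, Drosha, Dkc1 and Fbl (10447589) were over that p with the pools paired either way as a replicate block. Of all probe sets, 6.68% had a lower difference than Tarbp2 (10427255), 18.6% than Dgcr8 and 27.9% than Drosha, whereas 94.6% had a lower one than Fbl (10551464). When arrays were grouped by the treatment entry, 0 members were past the limits, and Tarbp2, Dgcr8, Drosha and Dkc1 turned to 0.05, 0.07, 0.03 and 0.05.

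**Figure D3:**
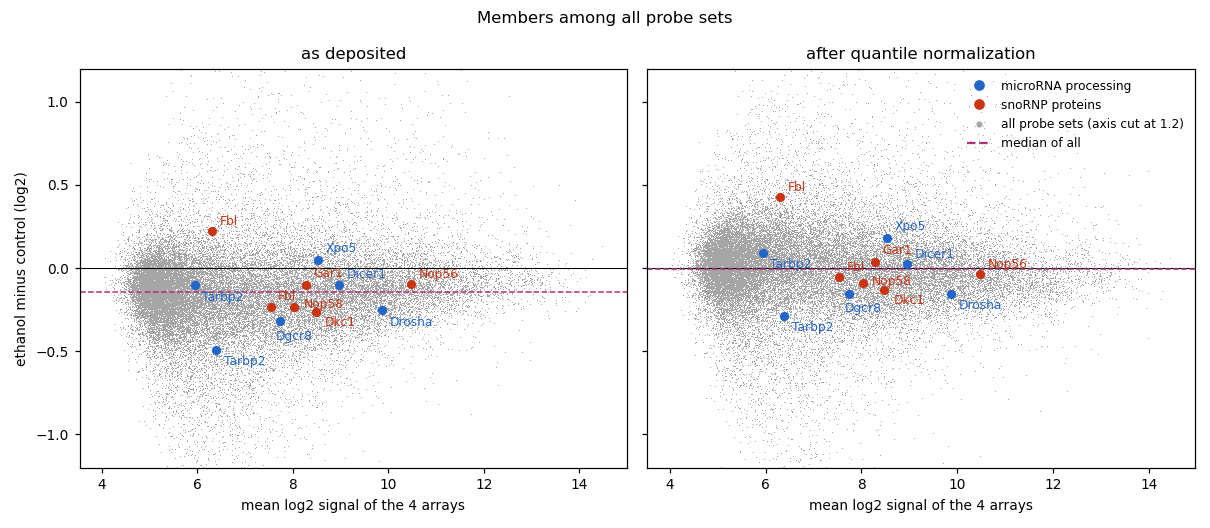
Difference between ethanol and control (vertical axis, log2) against mean log2 signal (horizontal axis) for all 35556 probe sets in grey (those beyond 1.2 in size are off the axis), with miRNA members in blue and snoRNP members in red, as deposited (left) and after quantile normalization (right). The dashed line is the median of all probe sets, -0.146 and -0.00424, and the members lie on both sides of it in both panels.

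The wider pathways were described by lists of genes, each gene by its brightest probe set. Snu13 had 4 probe sets, Srsf3 3, and Ago2, Ddx5 and Wdr12 2 each. Whether their other probe sets agree was not tested, nor whether the brightest one lies at the gene it names. As deposited, 12 of 69 other genes measured passed the limits on the lower side and 1 on the higher side. Of all probe sets 17.9% and 2.23% did. After quantile normalization 4 of the 69 passed them on the lower side and 2 on the higher, and 63 did not pass. Of all probe sets 5.87% and 5.71% then did. Counts in the lists below are read against the same shares. The median difference of the 69 genes was -0.13 as deposited and 0.00 after normalization.
Among 9 genes of the Argonaute complex, which carries the finished miRNA to its targets, 3 were lower as deposited and 1 after normalization, with medians of -0.22 and -0.10. Gemin4, found in Argonaute-containing complexes, had 6.91 and 6.86 in the saline pools against 6.45 and 6.36 in the ethanol pools. It differed by -0.48 (limma adjusted p = 0.165) and by -0.28 after normalization, past the limits in both forms. The helicase Mov10 (-0.33) and the silencing factor Tnrc6a (-0.32) were past them as deposited and not after normalization, at -0.12 and -0.19. The Argonaute genes Ago1, Ago2, Ago3 and Ago4 were at -0.02 to -0.11 and none was past the limits.
Among 19 other miRNA maturation factors, 3 were lower and 1 was higher as deposited, and 1 was lower and 1 higher after normalization, with a median of -0.13 as deposited. Ran, the GTPase whose loaded form Xpo5 needs to bind its cargo, had 10.11 and 9.89 in the saline pools against 9.56 and 9.53 in the ethanol pools. It differed by -0.46 (limma adjusted p = 0.173), and by -0.35 after normalization. Xpo1, the general export receptor of the same family as Xpo5, had 9.01 and 9.09 in the saline pools against 9.40 and 9.24 in the ethanol pools. It differed by 0.27 (limma adjusted p = 0.220) and by 0.39 after normalization, and like Ran it was past the limits in both forms. Prkra, a paralog of Tarbp2 that also binds Dicer1, was at -0.37 and Tut7, which adds uridines to miRNA precursors, at -0.34. After normalization these were at -0.16 and -0.22 and not past the limits.
None of 4 further snoRNP protein genes (Snu13, Nhp2, Nop10 and Rrp9) was past the limits as deposited, with a median of -0.16. None of 15 snoRNP assembly factors was either, with a median of -0.13. After normalization 1 assembly gene was higher, Coil, the scaffold of the Cajal body, at 0.31 against 0.10 as deposited. Among 22 genes of nucleolar ribosome synthesis, 6 were lower as deposited, with a median of -0.13, and 2 after normalization. The 2 were Polr1a, the largest subunit of RNA polymerase I, and the ribosomal RNA methyltransferase Emg1. Polr1a had 8.13 and 8.05 in the saline pools against 7.63 and 7.62 in the ethanol pools, and differed by -0.47 (limma adjusted p = 0.165) and by -0.31 after normalization. Emg1 differed by -0.46 and by -0.32 after normalization. The ribosome synthesis factors Rrp12 and Nop14 were at -0.37 and -0.36 as deposited and both at -0.19 after normalization.

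**Figure D4:**
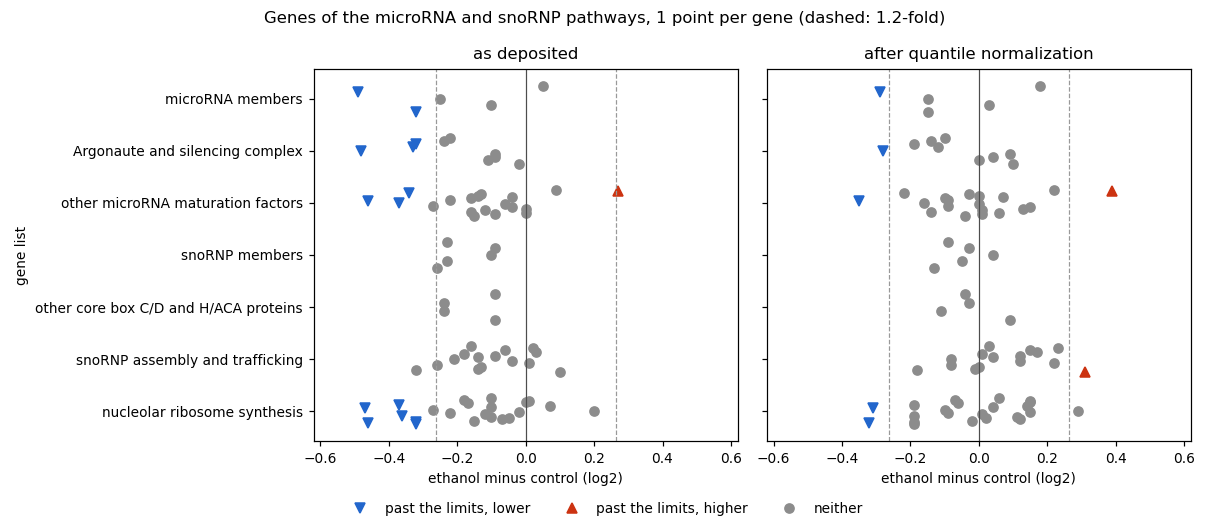
Difference between ethanol and control (horizontal axis, log2) for each gene of the 7 lists, 1 point per gene, as deposited (left) and after quantile normalization (right). Triangles are genes past the study's limits. Each gene is drawn by its brightest probe set, so Tarbp2 is 10427255 and Fbl is 10447589, which may not lie at Fbl. The other Fbl probe set (10551464, 0.22 as deposited and 0.43 after normalization) is not drawn. As deposited 12 of the 69 genes that are not members are past them and lower, and after normalization 4 are, with Xpo1 on the higher side in both panels. Of all probe sets, 17.9% as deposited and 5.87% after normalization are past them and lower.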

How the data were processed

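Whole-brain RNA was hybridized to 4 arrays, 2 per group. The authors summarized probes to gene level in Partek (6.6 per the labels, while the methods name another version) by RMA with GC adjustment and quantile normalization, and deposited log2 signals, used here unchanged and, as a second form, quantile normalized again. Array medians differed in the deposited table, and no build is given in the sources used here. As these are arrays, their number limits the precision. Probe sets were named from the platform annotation, in which 21789 name 1 gene, and 21698 of these matched an Entrez ID of the RefSeq table. Arrays were grouped by title.

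All 35556 probe sets were fitted with limma 3.58.1 in R 4.3.3 (two-sided, 2 residual and 2.57 prior degrees of freedom), with Benjamini-Hochberg adjustment over all of them and no filter on dim probe sets. As each array is a pool, p-values rest on the spread between pools, which limma draws partly from all probe sets. An exact permutation test over 2 against 2 arrays cannot go below p = 0.333 and was not used. The fit was tested on simulated data. Members and lists were chosen with earlier results of these data known, so no list was tested. Named genes are all members, small RNA genes within them, and from each other list the 4 largest differences past the limits and any past them in both forms. The Argonaute genes, Coil and the 4 further snoRNP protein genes were added after their values were seen. Mpp1, Trmt2a, Idh3b and Map3k12 were outside this rule too, named as the protein-coding genes that overlap members. Drawing used Python 3.11.15 and matplotlib 3.10.9.

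The alternatives were quantile normalization, median centring, a filter at a mean log2 of 5, a trend of the variance with intensity, the methods' ANOVA, each array left out, both possible pairings of pools as a replicate block, grouping by the treatment entry, the 2 arrays on which all labels agree, and a 1.5-fold limit. Leaving out arrays and regrouping after quantile normalization were added after the data were seen.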

Additional observations from a re-analysis of the deposited data

How the results depend on the processing

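As deposited, limma put 2 member probe sets past the study's limits on the lower side and 0 on the higher, 6369 and 794 of all probe sets, and 12 and 1 of the other pathway genes, with a median of -0.167 over the members. After quantile normalization these were 1 and 1, 2086 and 2030, 4 and 2, and -0.044. Centring the arrays on their medians gave 1 and 1, 1392 and 3231, 1 and 4, and 0.045. The methods' ANOVA kept 2 and 0 members but gave 2882 and 272 of all probe sets and 6 and 0 pathway genes. A 1.5-fold limit gave 0 members, 1289 and 405 of all probe sets, and 0 and 0 pathway genes. Grouping by the treatment entry gave 0 members, 244 and 326 of all probe sets, 0 and 0 pathway genes, and a median of 0.039. On the quantile form that grouping gave 0 members, 482 and 500 of all probe sets, 0 and 1 pathway genes, and a median of 0.015. The mean log2 filter and the intensity trend left 2 members lower and 0 higher, and the arrays on which all labels agree gave a median of -0.180.

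With 1 array left out, members past the limits ran from 1 to 2 lower and from 0 to 1 higher, all probe sets from 3485 to 6458 lower and from 713 to 969 higher, pathway genes from 5 to 11 lower and from 0 to 1 higher, and the median from -0.218 to -0.140. The lone array of a group is then assumed to vary like the other group's. On the quantile form, without control 1 the members were 0 and 0, all probe sets 1713 and 1694, pathway genes 2 and 2, and the median -0.048. Without control 3 these were 1 and 1, 2272 and 2047, 1 and 3, and -0.015. Without ethanol 2 they were 0 and 1, 1841 and 1811, 3 and 0, and -0.023. Without ethanol 4 they were 0 and 0, 1607 and 1651, 1 and 2, and -0.083.

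The groups share no replicate numbers and the labels do not say which pools came from the same litters, so both pairings were run as a replicate block. Control 1 with ethanol 2 gave 2 and 0 members, 6038 and 977 of all probe sets, and 11 and 0 pathway genes. Control 1 with ethanol 4 gave 2 and 0, 5932 and 831, and 11 and 1. Unadjusted p rose under these 2 pairings from 0.0321 to 0.0648 and 0.0581 for Drosha, from 0.0459 to 0.0843 and 0.0763 for Fbl (10447589), and from 0.0323 to 0.0609 and 0.0578 for Dkc1, while Tarbp2 (10427255) and Dgcr8 stayed under 0.05.

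Several members changed sign. Quantile normalization turned Dicer1 to 0.03, Tarbp2 (10544497) to 0.09 and Gar1 to 0.04, and median centring turned Dicer1 to 0.11, Tarbp2 (10544497) to 0.11, Nop56 to 0.12 and Gar1 to 0.11. Xpo5 was -0.04 without control 1 and Dicer1 ran from -0.22 to 0.02, the latter without ethanol 2. On the quantile form with 1 array left out, Dicer1 was 0.01 to 0.14 without control 3, control 1 (0.04) or ethanol 2, Tarbp2 (10544497) 0.07 to 0.11 in all 4 (0.09 without either control), Gar1 0.03 to 0.05 in all 4, and Nop56 0.04 without control 3 and 0.03 without ethanol 2. Grouping by the treatment entry turned Drosha to 0.03, Dgcr8 to 0.07, Xpo5 to -0.09, Tarbp2 to 0.05 (both probe sets), Nop58 to 0.10, Fbl to 0.04 (10447589) and -0.14 (10551464), Dkc1 to 0.05 and Gar1 to 0.03. On the quantile form these were 0.02, 0.04, -0.12, 0.03 and 0.02, 0.07, 0.01 and -0.17, 0.03 and 0.00. The cause was not tested. Signal limits both Tarbp2 probe sets, Fbl (10551464) and Mir693, which lay at or near the level of silent receptor genes in at least 1 group.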

Other observations

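Several protein-coding genes overlap member genes in the RefSeq table. Mpp1, which overlaps Dkc1 and encodes a membrane scaffold protein, had 8.43 and 8.45 in the saline pools against 8.13 and 8.19 in the ethanol pools, a difference of -0.28 (limma adjusted p = 0.189) and of -0.14 after quantile normalization, beside -0.26 and -0.13 for Dkc1. Trmt2a, which overlaps Dgcr8, was at -0.10 and 0.10, and Idh3b, which overlaps Nop56, at -0.11 and -0.13. Map3k12, which overlaps Tarbp2, has 2 probe sets, at 0.13 and -0.07 as deposited and at 0.21 and 0.10 after normalization, so neither was past the limits where Tarbp2 (10427255) was. How far transcripts of these neighbours enter the members' probe sets was not tested.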
